A study of Mus musculus with 2 samples.

Results

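The genes described here make hyaluronan or bind it or, for Pdpn, can bind its receptor Cd44. They are the 3 hyaluronan synthases Has1, Has2 and Has3, the membrane proteins Cd44 and Pdpn, and the secreted proteins Vcan, Hapln1, Tnfaip6 and Itih5. They were taken by gene symbol and are 9 of the 27775 features counted. Their levels were read in lacrimal glands, which make the watery layer of tears, from wild-type CD1 mice, an outbred strain. The P4 library came from glands of pups at postnatal day 4 and the E16 library from glands at embryonic day 16, with no genotype, treatment or agent that differed between them. The glands were pooled and digested with Liberase TM and DNase I to single cells, with no number of animals stated. Barcoding is called 10x Genomics in the title of the series and Drop-seq in its protocol. Each stage is 1 library, so no difference between P4 and E16 has a replicate check, and no p-value is given.

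Hyaluronan is a long, unbranched sugar chain that the Has enzymes polymerize at the plasma membrane and push out of the cell. Cd44 is its main cell surface receptor, and versican (Vcan), held to the chain by the link protein Hapln1, gives the matrix its swelling and space-filling character. Tnfaip6, also called TSG-6, moves heavy chains of inter-alpha-trypsin inhibitor onto hyaluronan, Itih5 encodes such a heavy chain, and Pdpn (podoplanin) is a mucin-like membrane protein that can bind Cd44 and is the ligand of the platelet receptor Clec-2. A hyaluronan-rich matrix is a known feature of embryonic mesenchyme around branching glands.

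The P4 library held 687 barcodes and 2712614 unique molecular identifiers (UMIs, each standing for 1 captured transcript), and the E16 library 437 barcodes and 2234700 UMIs. Barcodes with at least 200 detected genes numbered 406 in P4, with a median of 3767 UMIs, and 259 in E16, with a median of 5802 UMIs. No barcode was shared by both libraries. Scrublet called 0 doublets in P4 and 1 in E16, too few to show that it worked, so doublets may remain. Clusters made without the 9 genes gave 98 epithelial-like cells in P4 and 88 in E16, and 177 mesenchyme-like cells in P4 and 97 in E16. All 15 epithelial markers had UMIs in epithelial-like cells of both stages, summing to 7511 counts per 1000000 UMIs (CPM) in P4 and 4312 CPM in E16. All 12 mesenchyme markers had UMIs in mesenchyme-like cells, with 48971 CPM in P4 and 18914 CPM in E16. The same mesenchyme markers summed to 1234 CPM in P4 epithelial-like cells and 384 CPM in E16 ones, with 11 of 12 detected and Twist2 at 0 in both. The stages also filled different clusters, which bears on every comparison within a class. In the epithelium, a cluster with Col9a1 among its leading genes had 3 P4 and 31 E16 cells, one led by Mia had 35 P4 and 49 E16 cells, one led by Wfdc18 had 33 P4 and 8 E16 cells, and one led by Dcpp genes had 27 P4 and 0 E16 cells. In the mesenchyme, 2 clusters with Ly6a among their leading genes had 85 P4 and 7 E16 cells, one led by Kera had 77 P4 and 8 E16 cells, and 2 others with Crabp1 and Agtr2 among their leading genes had 15 P4 and 82 E16 cells.

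The position of the genes is given on GRCm38 from GENCODE M21. Has1 lies on chromosome 17 (17843323 to 17855205, minus strand), Has2 on chromosome 15 (56665627 to 56694539, minus) and Has3 on chromosome 8 (106870242 to 106884566, plus). Cd44 (102811141 to 102901665, minus), Tnfaip6 (52038009 to 52056686, plus) and Itih5 (10153571 to 10256529, plus) are on chromosome 2, and Pdpn is on chromosome 4 (143267431 to 143299564, minus). Hapln1 (89539796 to 89611652, plus) and Vcan (89655312 to 89742509, minus) are neighbours on chromosome 13, 43659 bases apart with no annotated gene between them. Whether counting used strand was not stated, so reads of Has2 and of its antisense transcript Has2os, or of Has3 and the overlapping Chtf8, cannot be told apart.

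The RefSeq table of promoters (GRCm38.p6) matched 7 of the 9 genes. The stretches of 5 of them follow, those of the genes that differed between the stages by at least 2-fold in 1 of the classes. Each is up to 250 bases before the RefSeq start on the gene's own strand, without bases inside the GENCODE gene. Capitals mark the motifs found: the GC box (GGGCGG) in Vcan and Itih5 and, with the AP-1 site (TGANTCA), in Tnfaip6, and the E-box (CACGTG) in Pdpn. The first 3 are those of genes that were higher in P4 mesenchyme-like cells, chr17:17855206-17855438 (minus strand) for Has1, chr2:52037863-52038008 (plus) for Tnfaip6 and chr2:10153293-10153542 (plus) for Itih5.
Has1: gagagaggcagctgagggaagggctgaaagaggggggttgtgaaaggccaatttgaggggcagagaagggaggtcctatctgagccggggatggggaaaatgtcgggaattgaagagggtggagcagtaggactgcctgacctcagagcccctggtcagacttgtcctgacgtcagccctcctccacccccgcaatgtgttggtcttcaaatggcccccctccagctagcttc
Tnfaip6: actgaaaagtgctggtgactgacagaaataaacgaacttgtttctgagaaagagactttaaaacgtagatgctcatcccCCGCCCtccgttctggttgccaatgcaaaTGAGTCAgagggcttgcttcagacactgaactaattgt
Itih5: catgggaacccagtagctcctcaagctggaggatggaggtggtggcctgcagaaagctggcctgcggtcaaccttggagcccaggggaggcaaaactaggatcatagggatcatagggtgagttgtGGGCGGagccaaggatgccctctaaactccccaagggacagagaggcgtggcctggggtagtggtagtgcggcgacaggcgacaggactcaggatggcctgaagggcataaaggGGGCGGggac
The other 2 are those of genes that were lower in P4 epithelial-like cells, chr13:89742513-89742762 (minus strand) for Vcan and chr4:143299565-143299814 (minus) for Pdpn.
Vcan: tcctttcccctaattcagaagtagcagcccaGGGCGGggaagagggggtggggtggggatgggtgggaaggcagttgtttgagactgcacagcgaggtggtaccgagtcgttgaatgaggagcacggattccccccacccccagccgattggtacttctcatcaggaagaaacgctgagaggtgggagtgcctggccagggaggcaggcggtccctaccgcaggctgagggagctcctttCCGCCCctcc
Pdpn: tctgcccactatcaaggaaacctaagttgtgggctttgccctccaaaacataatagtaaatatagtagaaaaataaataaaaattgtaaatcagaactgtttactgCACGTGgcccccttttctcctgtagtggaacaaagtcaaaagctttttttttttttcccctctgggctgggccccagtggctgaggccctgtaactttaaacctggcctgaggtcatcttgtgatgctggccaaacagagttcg
The motifs were searched on both strands of the full 250 bases, together with the TATA box core (TATAAA) and an NF-kB site. Tnfaip6 held an AP-1 site 142 to 136 bases before its start and a GC box on the opposite strand at 171 to 166. Vcan held GC boxes at 219 to 214 and, on the opposite strand, at 10 to 5, Itih5 held them at 124 to 119 and 10 to 5, and Pdpn held an E-box at 144 to 139. None of the 5 motifs was found in Has1, Cd44 or Hapln1. Of 32851 promoters of that length, 32.7% held a GC box, 12.4% a TATA box core, 6.75% an AP-1 site, 6.02% an E-box and 0.356% an NF-kB site. A match to a motif is a description of the letters and was not tied to any level.

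Has2, the synthase of most embryonic hyaluronan, was seen mainly in the E16 epithelium. It had 0 UMIs in 98 P4 epithelial-like cells and 82 UMIs in 88 E16 epithelial-like cells, which is 0 CPM in P4 and 131 CPM in E16 (95% interval 104 to 162). With P4 set to a floor of 3 counts per class (4.07 CPM), Has2 was 32.1-fold lower in P4 epithelium. Folds at this floor leave out the counting error of the side with UMIs, so they are not lower bounds. No P4 epithelial-like cell had a Has2 UMI, which allows a share of cells with a UMI of up to 3.06%, whereas 30 of 88 E16 cells did (34.1%, exact Clopper-Pearson interval 24.3 to 45.0%). Intervals and floors here cover counting error only. Deep P4 cells had none either, since the 43 P4 cells with at least 3 mesenchyme markers had a median of 10714 UMIs and 595477 UMIs in all, of which 0 were of Has2. After thinning each cell to 1342 UMIs, which left out 23 P4 and 11 E16 epithelial-like cells, the shares were 0% in P4 and 11.7% in E16. Among E16 erythroid-like cells, which should lack Has2, 0 of 25 had a UMI at a median of 6700 UMIs, against a median of 4876.5 in E16 epithelial-like cells. A single E16 cell of 31749 UMIs held 21 of the 82 UMIs, and without it the difference at the floor was 25.1-fold.

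In the mesenchyme Has2 was low at both stages. It had 11 UMIs (13.6 CPM) in P4 and 15 UMIs (23.5 CPM) in E16 mesenchyme-like cells, with a P4 over E16 ratio of 0.576 (95% interval 0.239 to 1.34) that rests on fewer than 30 UMIs and spans 1. P4 epithelium was thus lowest and E16 epithelium highest, and P4 and E16 mesenchyme lay between them with intervals that overlap (6.76 to 24.2 CPM in P4 and 13.2 to 38.8 CPM in E16). E16 smooth muscle-like cells had 2 Has2 UMIs in 16 cells (25.9 CPM), within the range of the mesenchyme. At E16 the mesenchyme to epithelium ratio was 0.180 (0.0964 to 0.315), a level 5.55-fold lower in mesenchyme.

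Has1, the synthase whose transcripts are known to respond to inflammatory signals, was a transcript of the mesenchyme and was higher at P4. It had 63 UMIs in P4 mesenchyme-like cells (77.6 CPM, 59.6 to 99.3) and 11 UMIs in E16 ones (17.2 CPM, 8.61 to 30.9), a ratio of 4.50 (2.35 to 9.47). In the epithelium it had 0 UMIs in P4 and 1 UMI in E16. With P4 epithelium set to the floor, it was 19.1-fold higher in P4 mesenchyme than in P4 epithelium. Few cells carried it. A Has1 UMI was found in 21 of 177 P4 cells (11.9%, 7.50 to 17.6%) and 6 of 97 E16 cells (6.19%, 2.30 to 13.0%), whose intervals overlap, and after thinning in 5.58% of P4 and 1.92% of E16 cells. The 10 P4 cells with most Has1 held 79.4% of its UMIs, and 4 cells had 5 or more. Outside both classes it had 0 UMIs in 131 P4 cells and 0 in 74 E16 cells. Has3, the synthase of shorter chains, had 0 UMIs in the mesenchyme of both stages and in P4 epithelium, and 3 UMIs in 3 E16 epithelial-like cells, at the floor, so no fold is given.

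**Figure D1:**
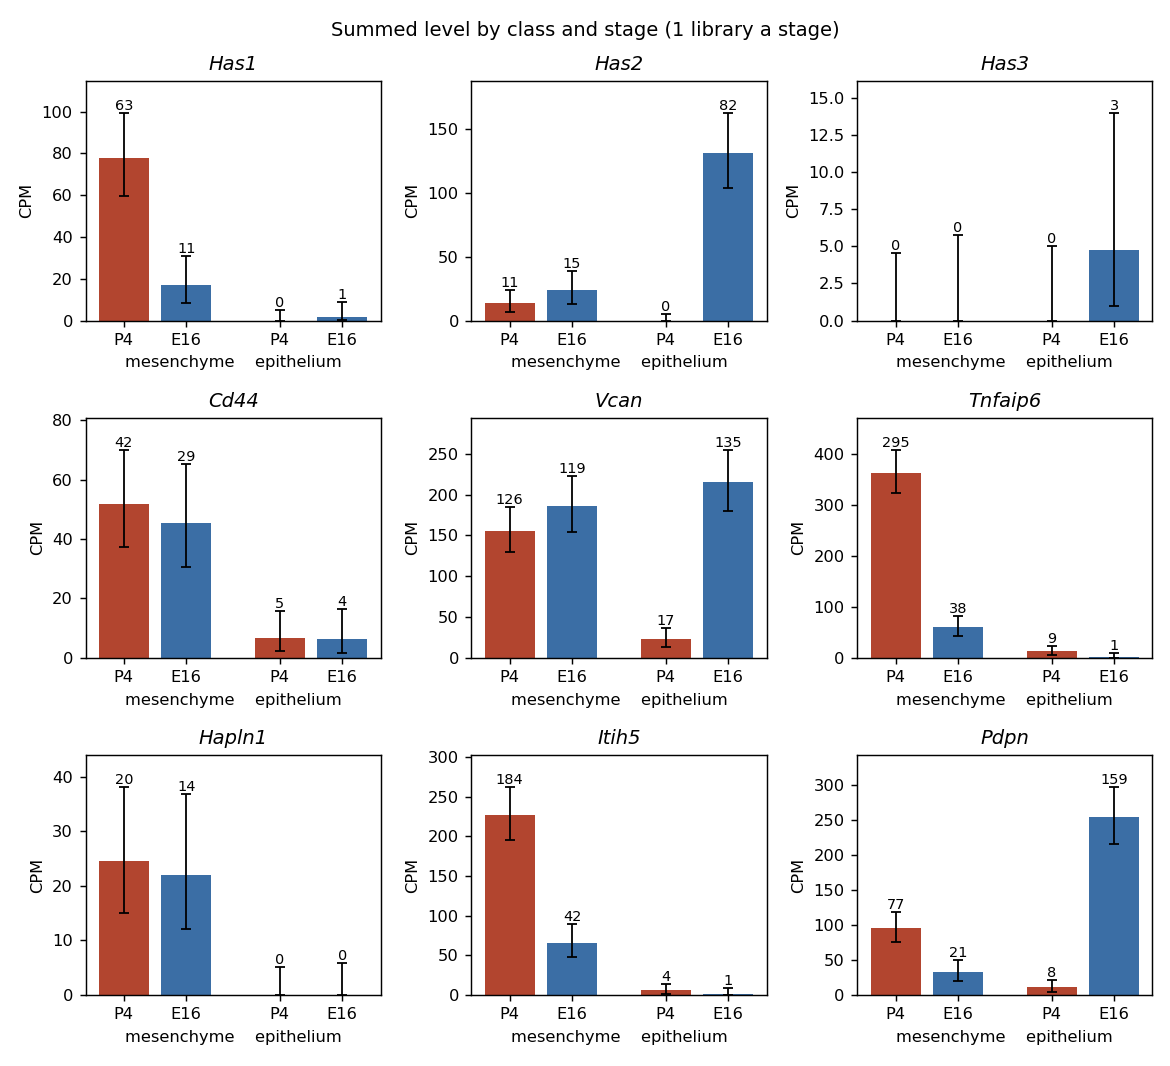
Summed level of each gene in CPM (vertical axes, scaled separately) in mesenchyme-like and epithelial-like cells of the P4 library (red) and the E16 library (blue). Bars are 1 library each, error bars are exact 95% Poisson intervals and the numeral over each bar counts its UMIs; Has2 stands at 0 UMIs in P4 epithelium and 82 in E16 epithelium, and Tnfaip6 at 295 in P4 mesenchyme and 38 in E16 mesenchyme.

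Only Vcan and Pdpn had at least 30 UMIs in the stage comparisons of both classes. Of these, Pdpn differed by at least 2-fold in opposite directions in the 2 classes. In the epithelium it had 8 UMIs in P4 (10.9 CPM, 4.69 to 21.4) and 159 UMIs in E16 (253 CPM, 215 to 296), a ratio of 0.0429 (0.0182 to 0.0866) or 23.3-fold lower in P4. In the mesenchyme it had 77 UMIs in P4 (94.9 CPM, 74.9 to 119) and 21 UMIs in E16 (32.9 CPM, 20.4 to 50.3), a ratio of 2.88 (1.76 to 4.92). The class with more Pdpn thus changed with stage. Mesenchyme was 8.73-fold (4.22 to 20.9) higher than epithelium in P4, and 7.69-fold lower in E16 (ratio 0.130, 0.0783 to 0.206). Pdpn UMIs were found in 5 of 98 P4 epithelial-like cells (5.10%) and 46 of 88 E16 ones (52.3%), and after thinning in 1.36% of P4 and 20.4% of E16 cells. In mesenchyme-like cells they were found in 27.1% of P4 and 18.6% of E16 cells, and after thinning in 11.4% of P4 and 4.49% of E16 cells. Among cells that should lack it, 0 of 62 P4 macrophage-like cells (median 2932.5 UMIs) and 2 of 25 E16 erythroid-like cells (8.0%) had a UMI. One E16 epithelial-like cell held 39 of the 159 UMIs, and with it and the P4 cell with most Pdpn left out the gene was 28.3-fold lower in P4 epithelium.

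Cd44 was higher in mesenchyme than in epithelium at both stages, and its stage ratio in mesenchyme had an interval that spans 1. It had 42 UMIs in P4 mesenchyme-like cells (51.7 CPM, 37.3 to 69.9) and 29 in E16 ones (45.5 CPM, 30.5 to 65.3), a ratio of 1.14 with an interval from 0.692 to 1.89. In the epithelium it had 5 UMIs in P4 (6.79 CPM) and 4 in E16 (6.37 CPM). It was 7.62-fold (3.02 to 24.7) higher in mesenchyme than in epithelium in P4 and 7.14-fold (2.51 to 27.9) higher in E16. This did not hold for all P4 mesenchyme. Its Kera cluster had 2 UMIs in 77 cells (7.10 CPM, 0.859 to 25.6), an interval that includes the level of P4 epithelium. Cd44 is also a leukocyte protein, and P4 macrophage-like cells had 5 UMIs in 62 cells (27.0 CPM, 8.77 to 63.0), an interval that overlaps that of the mesenchyme. E16 smooth muscle-like cells had 5 UMIs in 16 cells (64.7 CPM, 21.0 to 151), and all E16 cells outside both classes had 16 UMIs (35.9 CPM, 20.5 to 58.3), so Cd44 was not limited to the mesenchyme. Shares of mesenchyme-like cells with a Cd44 UMI were 17.5% in P4 and 21.6% in E16, and 5.42% in P4 and 5.35% in E16 after thinning.

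Vcan was held by the mesenchyme at both stages and by the epithelium at E16. Mesenchyme-like cells had 126 UMIs in P4 (155 CPM, 129 to 185) and 119 in E16 (187 CPM, 155 to 223), a ratio of 0.832 (0.642 to 1.08), and 45.8% of P4 and 56.7% of E16 cells had a UMI. Epithelial-like cells had 17 UMIs in P4 (23.1 CPM, 13.4 to 37.0) and 135 in E16 (215 CPM, 180 to 255), which was 9.32-fold lower in P4 (ratio 0.107, 0.0607 to 0.178). At E16 the mesenchyme and the epithelium could not be told apart (ratio 0.868, 0.672 to 1.12), although without cells carrying 3 markers of both classes the mesenchyme was 2.23-fold higher, and in P4 the mesenchyme was 6.73-fold (4.04 to 11.9) higher. Epithelial-like cells with a UMI made up 12.2% in P4 and 37.5% in E16, and 3.55% in P4 and 14.3% in E16 after thinning. Outside both classes the share was 1.61% in P4 macrophage-like and 4.0% in E16 erythroid-like cells. It was higher in other E16 cells, with Vcan in 3 of 16 smooth muscle-like cells (64.7 CPM) and 2 of 10 endothelial-like cells (31.3 CPM). Hapln1, the link protein whose gene neighbours Vcan, was seen in the mesenchyme, with 20 UMIs in P4 (24.6 CPM) and 14 in E16 (22.0 CPM), a ratio of 1.12 (0.539 to 2.40). It had 0 UMIs in the epithelium of both stages, where Vcan had 17 in P4 and 135 in E16.

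Tnfaip6 was higher in the P4 mesenchyme. It had 295 UMIs in P4 mesenchyme-like cells (363 CPM, 323 to 407) and 38 in E16 ones (59.6 CPM, 42.2 to 81.8), a ratio of 6.10 (4.34 to 8.79). It was found in 71 of 177 P4 cells (40.1%) and 17 of 97 E16 cells (17.5%), and in 23.4% of P4 and 6.75% of E16 cells after thinning. Outside both classes, 0 of 62 P4 macrophage-like and 0 of 25 E16 erythroid-like cells had a Tnfaip6 UMI. However, 1 of 12 P4 erythroid-like cells and 3 of 16 E16 smooth muscle-like cells (51.8 CPM) had one. Itih5 moved the same way, with 184 UMIs in P4 (227 CPM, 195 to 262) and 42 in E16 (65.9 CPM, 47.5 to 89.0), a ratio of 3.44 (2.45 to 4.93). Its share of cells was 48.6% in P4 and 29.9% in E16, and 22.9% in P4 and 9.10% in E16 after thinning. Epithelial-like cells of P4 held 9 Tnfaip6 and 4 Itih5 UMIs, and those of E16 held 1 of each (P4 over E16 ratio of Tnfaip6 7.67, 1.06 to 336, under the 30 UMIs needed for a call). The mesenchyme to epithelium ratios were 29.7 (15.5 to 65.7) for Tnfaip6 and 41.7 (16.03 to 155) for Itih5 in P4. At E16 they were 37.4 (6.32 to 1516) for Tnfaip6 and 41.3 (7.03 to 1671) for Itih5, each set against 1 UMI in the epithelium.

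**Figure D2:**
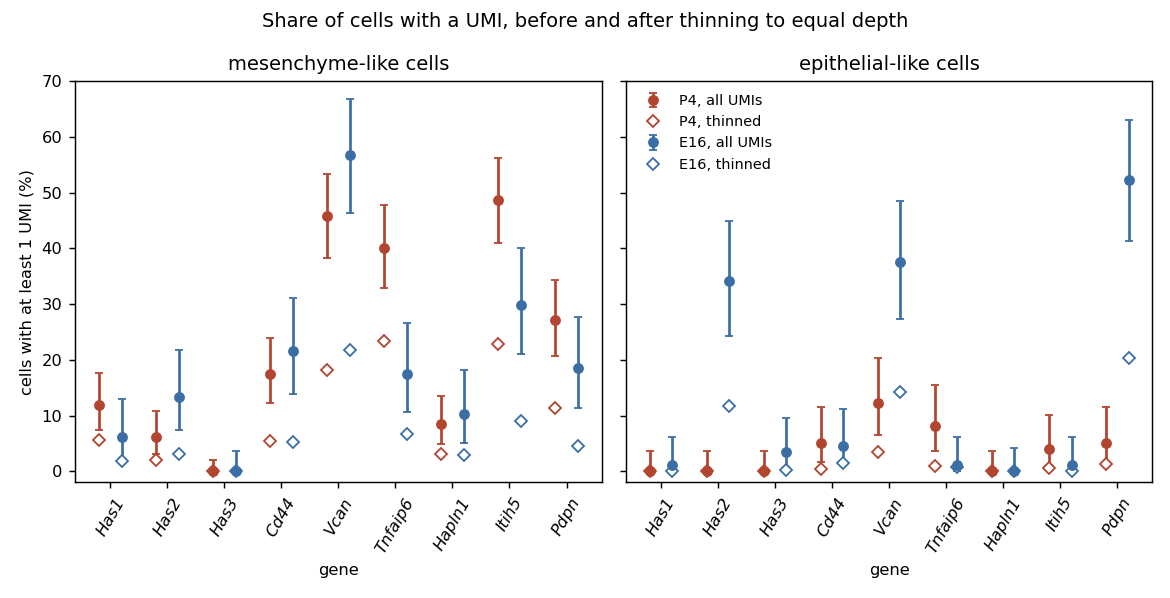
Share of cells with at least 1 UMI of each gene in percent (vertical axes), for P4 (red) and E16 (blue) in mesenchyme-like cells (left) and epithelial-like cells (right). Filled circles with exact Clopper-Pearson intervals use all UMIs and open diamonds the expected share after thinning each cell to 1342 UMIs; after thinning, Tnfaip6 stands at 23.4% in P4 and 6.75% in E16 mesenchyme, and Pdpn at 1.36% in P4 and 20.4% in E16 epithelium.

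Tnfaip6 and Has1 are also known as genes that respond to inflammatory signals, and enzyme digestion can induce such genes, so 2 further lists, chosen after values were seen, were summed. In mesenchyme-like cells 12 immediate early genes summed to 14920 CPM in P4 and 12429 CPM in E16, and 10 NF-kB response genes to 2967 CPM in P4 and 1330 CPM in E16. In epithelial-like cells the sums were 7696 CPM in P4 and 6432 CPM in E16 for immediate early genes, and 1679 CPM in P4 and 736 CPM in E16 for NF-kB response genes. The part of digestion in the P4 levels of Has1 and Tnfaip6 was not tested.

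A gene was counted in a comparison if it had at least 30 UMIs over both sides, and called if its CPM differed by at least 2-fold. A gene that is high on 1 side only can reach 30 UMIs through that side alone and then has to differ, so counts of called genes among the 9 describe them and support nothing against the share over all genes, here and in the comparisons of classes and clusters. In the mesenchyme 7 of the 9 were counted, of which 4 (Has1, Tnfaip6, Itih5 and Pdpn) were higher in P4, 0 were lower and 3 were neither. Of all 5704 genes counted there, 6.89% were higher in P4 and 13.7% lower. The median log2 ratio was 1.53 over the 7 genes and -0.18 over all genes. Has1 and Pdpn reached 30 UMIs through the P4 library. In the epithelium 3 of the 9 were counted, and all 3 (Has2, Vcan and Pdpn) were lower in P4, where of 5009 genes 27.5% were lower and 7.05% higher. Those 3 reached 30 UMIs through the E16 library. The other 6 had 0 to 10 UMIs and give no call. In P4 epithelium 4 genes above 1% of UMIs took 23.7% of all UMIs, and the median of all genes was -0.53 on the log2 scale. With those genes left out of the totals it was -0.14, and 14.7% of genes were lower and 11.4% higher. The differences then became 24.5-fold for Has2 at the floor, 17.8-fold for Pdpn and 7.11-fold for Vcan.

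**Figure D3:**
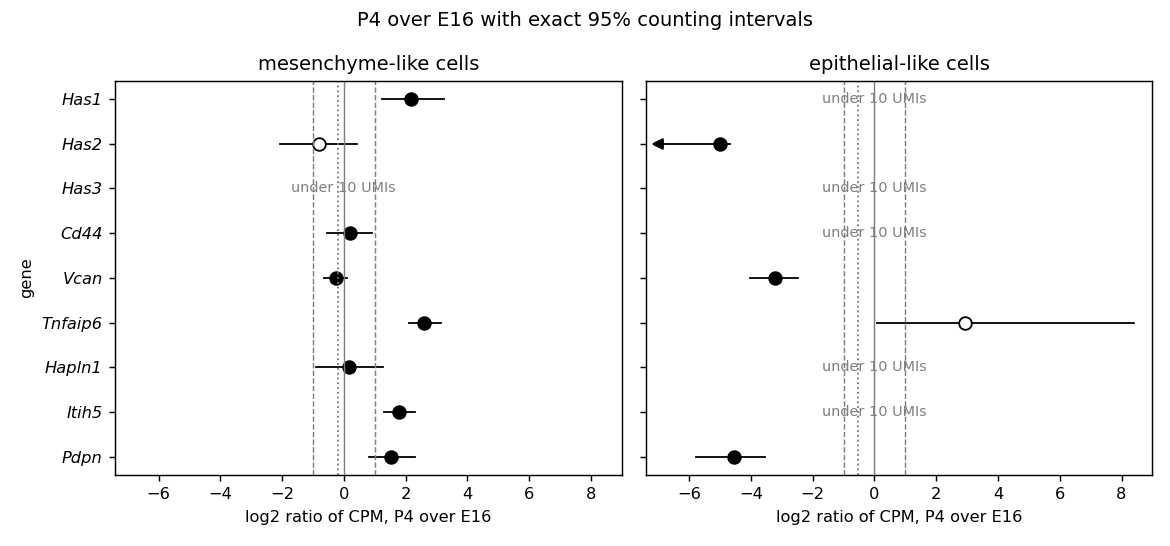
Ratio of P4 over E16 on the log2 scale (horizontal axes) for each gene in mesenchyme-like cells (left) and epithelial-like cells (right), with exact 95% counting intervals. Filled points have at least 30 UMIs, open points fewer, the arrow marks a bound, dashed lines mark 2-fold and the dotted line the median of all genes; Pdpn lies at 1.53 in mesenchyme and -4.54 in epithelium.

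Between the classes, 6 of the 9 genes were counted in P4 and all 6 (Has1, Cd44, Vcan, Tnfaip6, Itih5 and Pdpn) were higher in mesenchyme than in epithelium. Of 5376 genes counted, 29.4% were higher in mesenchyme and 11.4% lower, or 22.2% higher and 17.3% lower with genes above 1% of UMIs left out of the totals. All 6 reached 30 UMIs through the mesenchyme, since the epithelium had 0 to 17 UMIs of each. In E16, 6 were counted, of which 3 (Cd44, Tnfaip6 and Itih5) were higher in mesenchyme, 2 (Has2 and Pdpn) were lower and Vcan was neither. Of 5629 genes counted in E16, 20.2% were higher in mesenchyme and 14.8% lower. Has2, Pdpn, Tnfaip6 and Itih5 reached 30 UMIs through the class where they were high, and Cd44 had 29 UMIs in that class and 4 in the other. The E16 epithelium thus had more Has2 and Pdpn than the mesenchyme beside it, while Cd44, Tnfaip6 and Itih5 stayed at 1 to 4 UMIs there.

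Within the E16 epithelium the 3 genes were not spread evenly. The Col9a1 cluster had 161 CPM of Has2 in 19 of its 31 cells and 294 CPM of Vcan in 27, against 70.4 CPM of Has2 in 10 of 49 cells and 25.6 CPM of Vcan in 4 of 49 cells in the Mia cluster. The ratio between those clusters was 2.29 (1.20 to 4.80) for Has2 and 11.5 (4.38 to 42.8) for Vcan, and 1.51 (1.01 to 2.31) for Pdpn, which had 299 CPM in 28 Col9a1 cells and 198 CPM in 18 Mia cells. Of the 3 counted genes, Has2 and Vcan were at least 2-fold higher, both reaching 30 UMIs through the Col9a1 cluster, and 0 were lower, while of 3046 genes 13.2% were higher and 4.14% lower. A single Col9a1 cell held 21 of the 69 Has2 UMIs of that cluster. The Has2 ratio, close to 2-fold, was not recomputed without it, so its call may depend on that cell. The Col9a1 cells were deeper, with a median of 10799 UMIs, against 2333 in the Mia cluster. Their mesenchyme markers summed to 311 CPM, against 614 CPM in the Mia cluster and 18914 CPM in E16 mesenchyme-like cells, whose Vcan level was 187 CPM.

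For Vcan the stage ratio pointed in different directions in clusters of the epithelium, on few UMIs. Within the Mia cluster Vcan had 6 UMIs in 35 P4 cells and 4 in 49 E16 cells (78.3 CPM in P4 and 25.6 CPM in E16; ratio 3.06, 0.726 to 14.7), and with all clusters left out that came almost wholly from 1 library, Vcan was 1.46-fold lower in P4 and, at 22 UMIs, no longer counted. Within the Wfdc18 cluster it was lower in P4 (ratio 0.177, 0.0482 to 0.706), with 7 UMIs in 33 P4 cells (20.4 CPM) and 5 in 8 E16 cells (115 CPM). Of those 5 UMIs, 4 were in 1 E16 cell, so the ratio rests largely on that cell. Pdpn was lower in P4 within the Mia cluster, at a ratio of 0.197 (0.0386 to 0.633). It had 3 UMIs in P4 (39.2 CPM), all in 1 cell, and 31 in E16 (198 CPM). Within the Wfdc18 cluster Pdpn had 2 UMIs in 33 P4 cells and 0 in 8 E16 cells, too few to give a direction. The Wfdc18 and Dcpp clusters held 343517 and 285435 of the 736613 UMIs of P4 epithelium. Stage ratios of the epithelium and the makeup of its clusters thus cannot be fully told apart. Within the Mia cluster Has2 had 0 UMIs in P4 and 11 in E16 (70.4 CPM). With P4 set to 3 counts that is 1.80-fold lower, and its interval starts at 1.23-fold. Epithelial-like cells with at least 3 markers of both classes, 42 in P4 and 22 in E16, were also left out. Has2 was then 4.83-fold lower at the floor and Vcan 3.99-fold lower, with 29 Has2 and 27 Vcan UMIs. The 24 of 88 E16 cells with at least 3 mesenchyme markers held 112 of the 135 Vcan, 55 of the 82 Has2 and 75 of the 159 Pdpn UMIs of the E16 epithelium, and 356695 of its 627808 UMIs.

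**Figure D4:**
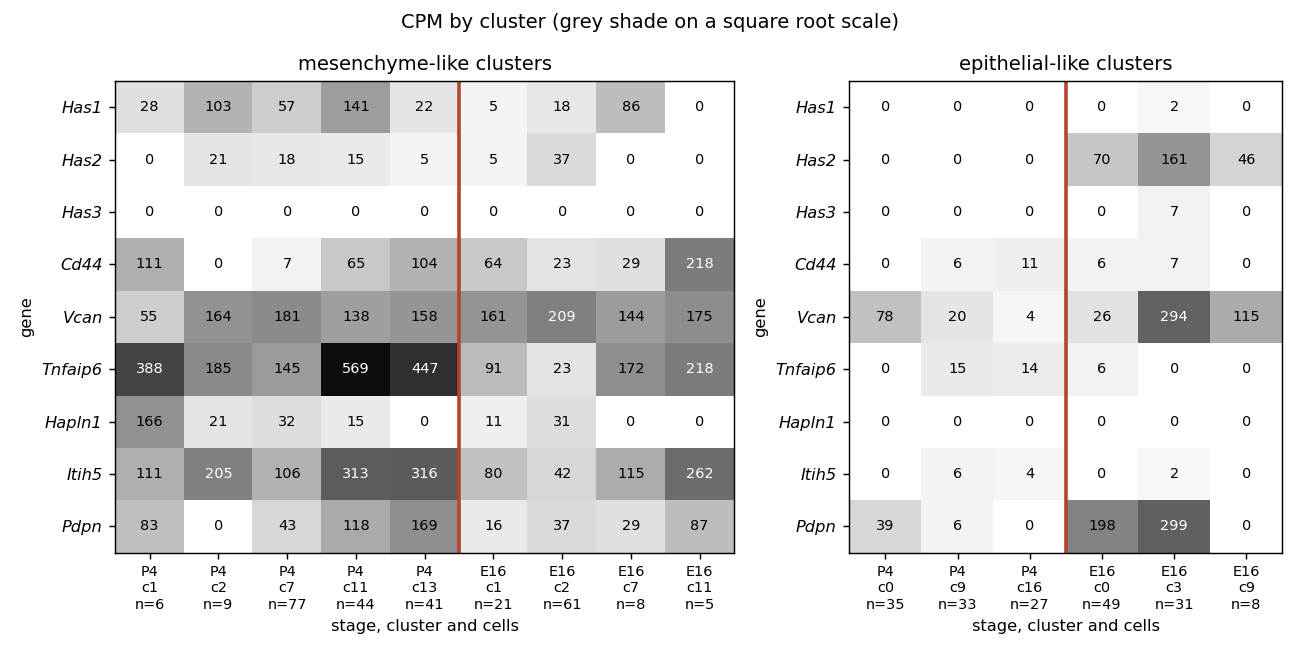
Level of each gene in CPM (numbers in the cells, shaded on a square root scale) in clusters with at least 5 cells of a stage, for mesenchyme-like (left) and epithelial-like clusters (right). P4 stands left of the red line and E16 right of it, with the cluster number (c) and its cells (n) below; Vcan is 294 CPM in the E16 Col9a1 cluster (c3), against 25.6 CPM in the E16 Mia cluster (c0).

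Within the P4 mesenchyme, 4 of the genes were higher in cells of the Ly6a clusters, which also had Mfap5, Clec3b and Dpt among their leading genes, than in the Kera cluster. Tnfaip6 had 519 CPM in 85 Ly6a cells and 145 CPM in 77 Kera cells, a ratio of 3.57 (2.55 to 5.10). Itih5 had 314 CPM in Ly6a cells and 106 CPM in Kera cells (2.95, 1.98 to 4.54), and Pdpn had 139 CPM in Ly6a cells and 42.6 CPM in Kera cells (3.27, 1.75 to 6.67). Cd44 had 36 UMIs in Ly6a cells and 2 in Kera cells, a ratio of 11.4 with an interval from 2.93 to 97.7. These 4 were among 6 counted genes, of which 0 were lower, while of 3446 genes 8.91% were higher and 7.98% lower. Cd44 and Pdpn reached 30 UMIs through the Ly6a clusters. Vcan did not differ beyond counting error, with 146 CPM in Ly6a and 181 CPM in Kera cells (0.807, 0.551 to 1.19), nor did Has1, with 92.1 CPM in Ly6a and 56.8 CPM in Kera cells (1.62, 0.891 to 3.10). Has2 had 5 UMIs in each. Between the 2 Ly6a clusters Has1 was uneven, with 141 CPM (99.5 to 195) in 44 cells and 21.8 CPM (5.94 to 55.8) in 41 cells. Its UMIs were in 9 cells of the first cluster and 3 of the second, at median depths of 6103 and 4506 UMIs. In the first, 3 cells had 5 or more Has1 UMIs each, so the difference leans on few cells.

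The Ly6a clusters had 85 P4 and 7 E16 cells, so the stage ratio of the mesenchyme and the makeup of its clusters cannot be told apart from these 2 libraries. Within single clusters the values were mixed. In the Kera cluster, with 77 P4 and 8 E16 cells, the P4 over E16 ratio was 0.844 (0.356 to 2.43) for Tnfaip6 and 0.926 (0.326 to 3.62) for Itih5, and 0.658 (0.188 to 3.53) for Has1, with 16 UMIs in P4 and 3 in E16. In the larger Agtr2 cluster, with 9 P4 and 61 E16 cells, it was 7.87 (2.77 to 22.4) for Tnfaip6, 4.92 (1.996 to 11.5) for Itih5 and 5.62 (1.41 to 20.6) for Has1. There 1 P4 cell held 8 of the 9 Tnfaip6 UMIs, and 1 held 4 of the 5 Has1 UMIs. In the Kera cluster 1 E16 cell held all 6 Tnfaip6 UMIs, and 1 held all 3 Has1 UMIs. The ratios of Tnfaip6 and Has1 in these 2 clusters thus rest largely on single cells, which the intervals do not cover. Pdpn, higher in the P4 mesenchyme as a whole, had 0 UMIs in P4 and 14 in E16 cells of the larger Agtr2 cluster. Those P4 cells held 48677 UMIs in all and the E16 cells 383289, and the interval of the ratio, 0 to 2.37, spans 1. In the Kera cluster Pdpn had 12 UMIs in P4 and 1 in E16 (1.48, 0.219 to 63.3). In the first Ly6a cluster, with 44 P4 and 5 E16 cells, Tnfaip6 was at 2.61 (1.09 to 8.15) and Itih5 at 1.20 (0.526 to 3.35).

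UMIs of several of the genes were found in the same cells. In the E16 epithelium 21 of 88 cells had UMIs of 3 or more of the 9 genes, and 31 had none. Depth moved with that count, with a median of 12058 UMIs in cells with 3 or more and 1965 in cells with none. Of the 30 E16 cells with Has2, 24 (80.0%) had Pdpn and 20 (66.7%) had Vcan, which are 52.2% of the 46 Pdpn cells and 60.6% of the 33 Vcan cells. In P4 epithelium 1 of 98 cells had 3 or more and 75 had none. In the P4 mesenchyme 62 of 177 cells had UMIs of 3 or more, at a median of 5752 UMIs, and 22 had none, at 3058 UMIs. Of 21 P4 cells with Has1, 15 (71.4%) had Tnfaip6, and of 31 with Cd44, 24 (77.4%) had it, whereas Tnfaip6 was found in 71 of 177 cells in all. Tnfaip6 and Itih5 shared 44 cells, 62.0% of the Tnfaip6 cells and 51.2% of the 86 Itih5 cells. In P4 mesenchyme Has1 shared 0 cells with Has2 (11 cells) and 0 with Hapln1 (15 cells), and Has2 shared 0 with Hapln1. So few of the 177 cells carried these genes that sharing of 0 cells cannot show that they are kept apart. In E16 mesenchyme 5 of 13 Has2 cells had Hapln1. Sharing was not set against equal depth or against the overlap of independent detection, and cells with several of the genes were deeper.

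**Figure D5:**
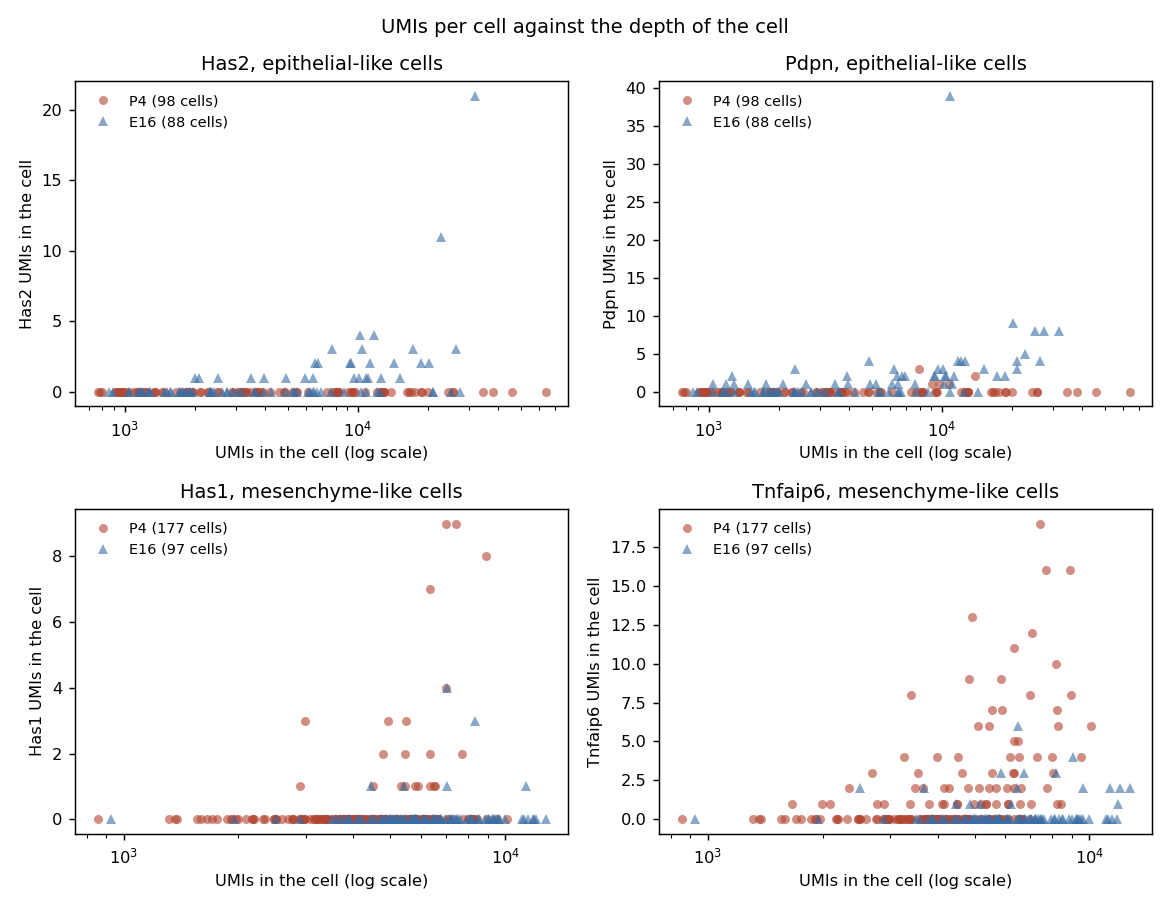
UMIs of a gene in each cell (vertical axes) against all UMIs of the cell (horizontal axes, log scale), for Has2 and Pdpn in epithelial-like cells (top) and Has1 and Tnfaip6 in mesenchyme-like cells (bottom). Red circles are P4 cells and blue triangles E16 cells; P4 epithelial-like cells stay at 0 for Has2 at every depth, and the highest Tnfaip6 count is 19 in a P4 cell.

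The other genes of hyaluronan metabolism were taken as 6 lists. Of 13 genes that make the precursor sugars, 11 were counted in the mesenchyme and 0 were called, with a median log2 ratio of -0.30 against -0.18 for all genes. Among them was Ugdh, the enzyme that makes UDP-glucuronic acid, with 377 CPM in P4 and 362 CPM in E16. In the epithelium 9 were counted, with Hk1 (hexokinase) higher (2.98, 1.45 to 6.75) and Ugdh lower (0.482, 0.286 to 0.796) and a median of -0.05 against -0.53. Ugdh was 10.7-fold higher in mesenchyme than in epithelium in P4 and 4.94-fold higher in E16. Of 9 hyaluronidases and depolymerases, 4 were counted in each class. In the epithelium 1 was higher and 1 lower in P4, with a median of -0.05. Hyal2, a hyaluronidase of the cell surface, was the lower one, with 15 UMIs in P4 and 61 in E16 (0.210, 0.111 to 0.373). In the mesenchyme 0 of 4 were called, and their median was 0.62.

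Of 8 other hyaluronan receptors, 2 were counted. Hmmr, which is also a spindle protein of dividing cells, was lower in P4 in epithelium (0.411, 0.201 to 0.804) and in mesenchyme (0.284, 0.153 to 0.504), and Icam1 was lower in epithelium (0.426, 0.268 to 0.666) and neither in mesenchyme (0.807, 0.496 to 1.31). Of 15 further link, heavy chain and binding proteins, 0 were counted in the epithelium and 2 in the mesenchyme, both lower in P4. They were Ptx3, a pentraxin that binds Tnfaip6, with 22.2 CPM in P4 and 65.9 CPM in E16 (0.337, 0.182 to 0.598), and Habp4 (0.496, 0.220 to 1.08). Ptx3 was thus lower where Tnfaip6 and Itih5 were higher. Of 12 genes that cleave versican or assemble with it, 9 were counted in the mesenchyme, of which 3 were higher in P4 and 1 lower, with a median of 0.73. Fn1 (fibronectin) had 944 CPM in P4 and 299 CPM in E16 (3.15, 2.69 to 3.71), Thbs1 (thrombospondin 1) had 158 CPM in P4 and 47.0 CPM in E16 (3.35, 2.24 to 5.17), and Adamts9, a versican-cleaving protease, was lower (0.360, 0.159 to 0.764). In the epithelium 6 were counted, with Fn1 higher (2.22, 1.03 to 5.15), Adamts1 (0.273, 0.106 to 0.624) and Fbln1 (0.223, 0.134 to 0.356) lower and a median of 0.26. Of 13 partners of Cd44 and Pdpn at the cell cortex, 4 were counted in the mesenchyme with 0 called and a median of 0.32. In the epithelium 5 were counted with a median of -0.77, and Mmp14, a membrane protease that cleaves Cd44, was lower (0.473, 0.260 to 0.840).

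For 5 of the genes, the genes with the most similar levels were sought by Pearson correlation of log2(CPM + 20) over 7 groups of a class and library with at least 20 cells, among 4722 genes. The groups share 2 libraries and their depth, so the values describe these groups only. Has1 was closest to Cpz (r = 0.995), a secreted carboxypeptidase, Tnxb (tenascin X) and Krtdap. Has2 was closest to Etv5 (r = 0.970), a transcription factor, with 11 UMIs in P4 and 134 in E16 epithelium, then to Wbscr16 and Actg1. Cd44 was closest to Lrp1 (r = 0.994), Emilin2 and Clmp, and Vcan to Flywch2 (r = 0.982) and Smoc2. Pdpn was closest to Rbp4 (r = 0.956), which carries retinol, with 0 UMIs in P4 and 59 in E16 epithelium, then to Kdelc1 and Adgra3.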

How the data were processed

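RNA of single cells was counted in 1 library of pooled lacrimal glands per stage. The deposited tables hold whole-number UMI counts per gene and barcode with no normalization, made with Cell Ranger on build mm10, per the submitters' processing notes. Settings, annotation and the choice of barcodes were not stated. Mitochondrial features had 0 UMIs, so dying cells could not be judged.

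Barcodes with at least 200 detected genes were kept. Both libraries were clustered together in scanpy 1.11.5 (Leiden, resolution 1, 2000 variable genes, 20 components, 15 neighbours) without the 9 genes. Each cluster was named for the best-scoring class among those with at least 3 markers in 20% of its cells. That a class with fewer detected markers was passed over was chosen after the data were seen, since a mesenchyme cluster otherwise stayed unnamed. Called doublets were kept.

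UMIs were summed over a class and library and divided by their total as CPM, with exact Poisson intervals. Ratios have exact conditional 95% intervals. A side at 0 was set to 3 counts. Thinned shares are expectations at 1342 UMIs, the 10th percentile of P4 cells. All 9 genes are named, and of each other list the 2 genes furthest in either direction. Some results that these rules select are not reported here. The 9 genes and the lists were chosen with earlier results of these data known. The alternatives changed the barcode minimum, the totals, the weight of cells, the clustering, the class rule, doubtful or deep cells, the minimum of 30 UMIs and the doublets. Coordinates are those of GENCODE M21 and promoters those of RefSeq.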

Additional observations from a re-analysis of the deposited data

Results flagged for a closer look

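Pdpn differed in opposite directions between the stages in the 2 classes, with a P4 over E16 log2 ratio of -4.54 in epithelial-like cells and 1.53 in mesenchyme-like cells. Likewise, its mesenchyme over epithelium log2 ratio was 3.13 in P4 and -2.94 in E16. The difference between those effects was not tested, since each stage is 1 library. Barcodes with fewer than 200 detected genes, which no comparison used and whose UMIs were mostly of haemoglobin, held some of the genes above the limit of 3 that a count of 0 allows. Tnfaip6 had 6 and Itih5 7 UMIs in the 281 P4 barcodes, among 34186 UMIs not of haemoglobin, and Vcan had 5 UMIs in the 178 E16 barcodes, among 22687.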

How the results depend on the processing

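Of 66 recomputed counts of called genes, 57 stayed within 1.5 times and 9 did not. Of 318 recomputed ratios of single genes, 27 left the counting interval of the main ratio and 0 reversed a call. A gene without a call could not reverse one. Among those, the stage ratio in mesenchyme kept its direction in 12 of 15 alternatives for Hapln1, 13 for Cd44 and 14 for Vcan. The ratio of Vcan between the classes at E16 kept it in 12 of 14. In epithelial-like cells the count of genes called between P4 and E16 was 1 both without cells carrying 3 markers of both classes and without clusters of 1 library, and in mesenchyme-like cells it was 2 at a minimum of 100 UMIs. Between the classes at that minimum it was 3 in P4 and 1 in E16, and in E16 it was also 3 at 1000 detected genes, 3 at resolution 0.5, 3 with the highest score of any class taken first and 2 with the libraries clustered alone. Each of these counts fell as genes dropped under the minimum. Without cells carrying markers of both classes, Has2 (29 UMIs) stayed 4.83-fold lower in P4 epithelium at the floor, and Vcan (27 UMIs) 3.99-fold lower. At 1000 detected genes Cd44 (22 UMIs) and Tnfaip6 (24 UMIs) stayed 5.52-fold and 28.2-fold higher in E16 mesenchyme. Vcan without clusters of 1 library fell both under the minimum and under 2-fold. Over 15 alternatives the stage ratio in mesenchyme stayed at 3.35 to 9.19 for Has1 and 3.29 to 9.49 for Tnfaip6. It stayed at 2.23 to 4.44 for Itih5 and 2.27 to 3.67 for Pdpn. The fold by which P4 epithelium was lower was 4.83 to 32.1 for Has2 (at the floor). It was 1.46 to 16.2 for Vcan and 13.0 to 85.9 for Pdpn. Over 14 alternatives, mesenchyme over epithelium in P4 ranged from 3.80 to 19.8 for Has1, 2.51 to 17.3 for Cd44, 3.76 to 11.1 for Vcan, 17.6 to 48.7 for Tnfaip6, 10.5 to 71.3 for Itih5 and 4.53 to 30.2 for Pdpn. In E16 it ranged from 4.62 to 13.0 for Cd44, 10.6 to 71.5 for Tnfaip6 and 6.28 to 94.4 for Itih5, and the fold by which mesenchyme was lower from 3.54 to 33.2 for Has2 and 6.46 to 10.1 for Pdpn. At E16, Vcan was 2.23-fold higher in mesenchyme than in epithelium without cells carrying markers of both classes. Hapln1 in mesenchyme ranged from 0.709 to 3.17. With 4.07 CPM as the floor of P4 epithelium, genes at 0 there may still be present at lower levels. No paired analysis was possible because each stage has 1 library.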
